A study of Mus musculus with 10 samples.

Results

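The expression of 10 genes of fatty acid synthesis and of its acetyl-CoA supply was examined in the left ventricle of failing mouse hearts with and without RAD. They were *Acss2*, *Acly*, *Acaca*, *Acacb*, *Fasn*, *Elovl6*, *Scd1*, *Scd2*, *Srebf1* and *Mlxipl*, chosen by name, with the genotype difference of *Acss2* in these same hearts already known. All 10 were among the 13453 genes that passed the filter on low counts, out of 57185 genes with counts.

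The study asked whether removing RAD, an inhibitor of the L-type calcium channel of cardiomyocytes, changes hearts that already have dilated cardiomyopathy. RNA-seq with polyA selection was performed on the apical part of the ventricle of 5 MLPKO and 5 MLPKO-cRADKO mice, all male. Both groups lacked MLP (muscle LIM protein, gene *Csrp3*), both carried floxed alleles of the RAD gene *Rrad*, and both were given 100 mg/kg tamoxifen once, intraperitoneally, at 10 weeks (2.5 months) of age. Hearts were taken 1 month after tamoxifen, and the labels give the age as 16 weeks. MLPKO-cRADKO mice carried in addition MYH6-MerCreMer, a tamoxifen-activated Cre driven by the promoter of the cardiomyocyte myosin gene *Myh6*, so recombination was restricted to cardiomyocytes while the RNA came from all cells of the tissue. MLPKO mice had no Cre transgene, so RAD loss and the presence of active Cre cannot be told apart, and there was no group with intact MLP.

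Cytosolic acetyl-CoA is the carbon source of new fatty acids and also the donor for histone acetylation. It is made from citrate by ATP citrate lyase (*Acly*) or from acetate by acetyl-CoA synthetase 2 (*Acss2*). Acetyl-CoA carboxylase turns it into malonyl-CoA, which fatty acid synthase (*Fasn*) builds into palmitate. The heart makes little fat and burns much, and there the malonyl-CoA made by the mitochondria-associated carboxylase *Acacb* is known mainly as a brake on fatty acid entry into mitochondria. SREBP-1 (*Srebf1*) and ChREBP (*Mlxipl*) are the transcription factors best known for driving these genes in liver and fat.

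The stretches just upstream of *Acss2* and *Acly* are shown because this pair held the members with the clearest genotype differences. Each line gives the 250 bases before the start of the GENCODE canonical transcript in build GRCm39, 5′ to 3′ on the gene's strand, at chr2:155359618-155359867 (plus strand) for *Acss2* and chr11:100418827-100419076 (minus strand) for *Acly*. Capitals mark matches, on either strand, to 4 short motifs: the sterol regulatory element that SREBP binds (SRE, TCACNCCAC), the E-box that ChREBP and USF factors can bind, the CCAAT box of NF-Y and the GC box of SP1.
Acss2: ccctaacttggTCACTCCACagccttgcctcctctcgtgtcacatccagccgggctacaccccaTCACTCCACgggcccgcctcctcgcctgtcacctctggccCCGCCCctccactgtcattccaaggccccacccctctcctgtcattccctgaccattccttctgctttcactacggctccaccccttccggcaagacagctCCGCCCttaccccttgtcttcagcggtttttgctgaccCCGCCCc
Acly: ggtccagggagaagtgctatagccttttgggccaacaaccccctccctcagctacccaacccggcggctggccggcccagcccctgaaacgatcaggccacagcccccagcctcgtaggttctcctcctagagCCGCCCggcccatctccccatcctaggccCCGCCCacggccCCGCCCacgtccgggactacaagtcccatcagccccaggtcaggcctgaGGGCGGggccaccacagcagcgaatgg

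The upstream stretch of *Acss2* held SRE letters in 2 places, from bases -239 and -186 relative to the start. *Acly* had none in this window and carried 4 GC boxes. Over 9 of the 10 genes (*Fasn* was left out of the search), 3 (*Acss2*, *Acaca* and *Mlxipl*) had an SRE match, against 1.12% of 21770 promoters of the same length. A GC box, searched as GGGCGG, was present upstream of 3 of the 9 and in 36.3% of all promoters. A CCAAT box, searched by those letters, was upstream of *Scd1* alone and in 36.5% of all promoters. An E-box, searched as CACGTG, was upstream of *Acaca* alone and in 6.26% of all promoters. In *Acaca* the SRE match (from base -98) and the E-box (from base -157) lay in a stretch rich in CA repeats. These matches describe letters only and do not show binding.

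**Figure D1:**
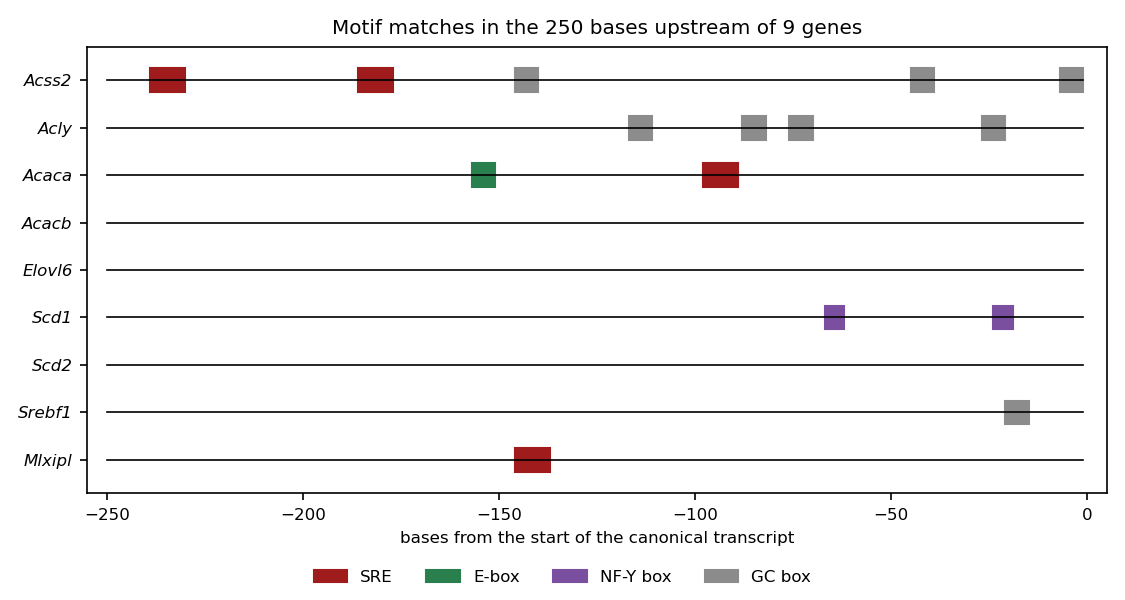
Positions of motif matches in the 250 bases upstream of the canonical start of 9 genes. The x axis is the distance in bases from the start, boxes mark matches on either strand, and the NF-Y box is the CCAAT box. *Acss2* has SRE matches in 2 places, *Acaca* and *Mlxipl* have 1 each, and *Acacb*, *Elovl6* and *Scd2* have no match to any of the 4 motifs.

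A pair of libraries stood apart before any comparison. MLPKO-cRADKO mouse 3 held RNA of fat cells: 6 genes that define adipocytes (*Adipoq*, *Retn*, *Plin1*, *Cfd*, *Lep* and *Cidec*) summed to 3268 counts there (89.3 CPM, counts scaled by the TMM library size) and to between 0 and 42 counts in each of the other 9 mice. Each of the 6 was highest in mouse 3, and *Cfd* gave 2232 of the counts. They were taken from 12 listed white adipocyte markers. Among the others, *Slc7a10* (8 counts, against 12 in MLPKO mouse 5) and *Pparg* (11.1 CPM, against 12.5 in MLPKO mouse 2) were not highest in mouse 3. Of 8 listed brown fat markers, *Ucp1* and *Elovl3* did not exceed 3 counts in any mouse, and the other 6 did in at least 1. *Adrb3* had 20 counts in MLPKO-cRADKO mouse 3, 0 in every MLPKO mouse and 0 to 4 in the other MLPKO-cRADKO mice. The summed brown fat markers were 25.7 CPM in mouse 3, within the range of 17.8 to 37.9 CPM over all mice. Of this sum *Cidea* gave 16.2 CPM in mouse 3, and it gave at least 14.8 CPM in every mouse. The mean of *Cidea* was lower in MLPKO-cRADKO (16.5 CPM against 26.5 CPM in MLPKO), so the range of the sum says little about brown fat. MLPKO mouse 2 lay farthest out on the first principal component (35.3% of variance) and had the highest summed atrial (2456 CPM) and blood (2798 CPM) markers. Atrial sums were also high in MLPKO mice 5 (1798 CPM) and 1 (965 CPM). They were 238 and 112 CPM in MLPKO mice 3 and 4 and from 154 to 453 CPM in MLPKO-cRADKO. Blood sums were also high in MLPKO-cRADKO mice 4 (1978 CPM) and 3 (1660 CPM). Total counts per mouse ran from 33457406 to 49965101. The targeted genes did not fall to zero: *Rrad* ranged from 139.7 to 282 CPM in MLPKO and from 135 to 202 CPM in MLPKO-cRADKO (log2 fold change -0.38, edgeR adjusted p = 0.29), and *Csrp3* from 1009 to 3261 CPM and from 691 to 1177 CPM (-1.08, edgeR adjusted p = 0.0667), so transcript level does not verify either deletion here. At the protein level, the paper reports loss of RAD in MLPKO-cRADKO hearts after tamoxifen, by western blot. Summed ventricular cardiomyocyte markers were lower in MLPKO-cRADKO (56253 to 68892 CPM against 71635 to 84209 CPM, 8 of 9 genes lower). All 8 endothelial markers were higher, 1 at an edgeR adjusted p under 0.05 and 3 by DESeq2. All 11 macrophage markers were higher, 0 by that edgeR threshold and 6 by DESeq2. The macrophage sums overlapped (256 to 548 CPM against 210 to 308 CPM in MLPKO) and were highest in mouse 3. Over all genes tested, 7014 of 13453 were higher. In bulk tissue, fewer cells of a type and less RNA per cell cannot be told apart.

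Of the 10 genes, *Acss2* was lower and *Acly* higher in MLPKO-cRADKO at an edgeR adjusted p under 0.05 over all genes, the same 2 were called by DESeq2, and the other 8 were not called by either tool. Over all genes tested edgeR called 2.74% (0.944% higher, 1.8% lower) and DESeq2 called 9.65% (3.81% higher, 5.84% lower). The genotypes did not overlap for these 2 genes alone, as for 6.62% of all genes (2.64% higher, 3.98% lower). Because the genes were gathered with this comparison in view, these counts and the differences that follow are a description. Among the 10, 6 were higher and 4 lower, with a median log2 fold change of 0.07 beside 0.01 over all genes. The members did not shift together, since the supply enzymes moved apart and the remaining 8 lay on both sides of zero.

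**Figure D2:**
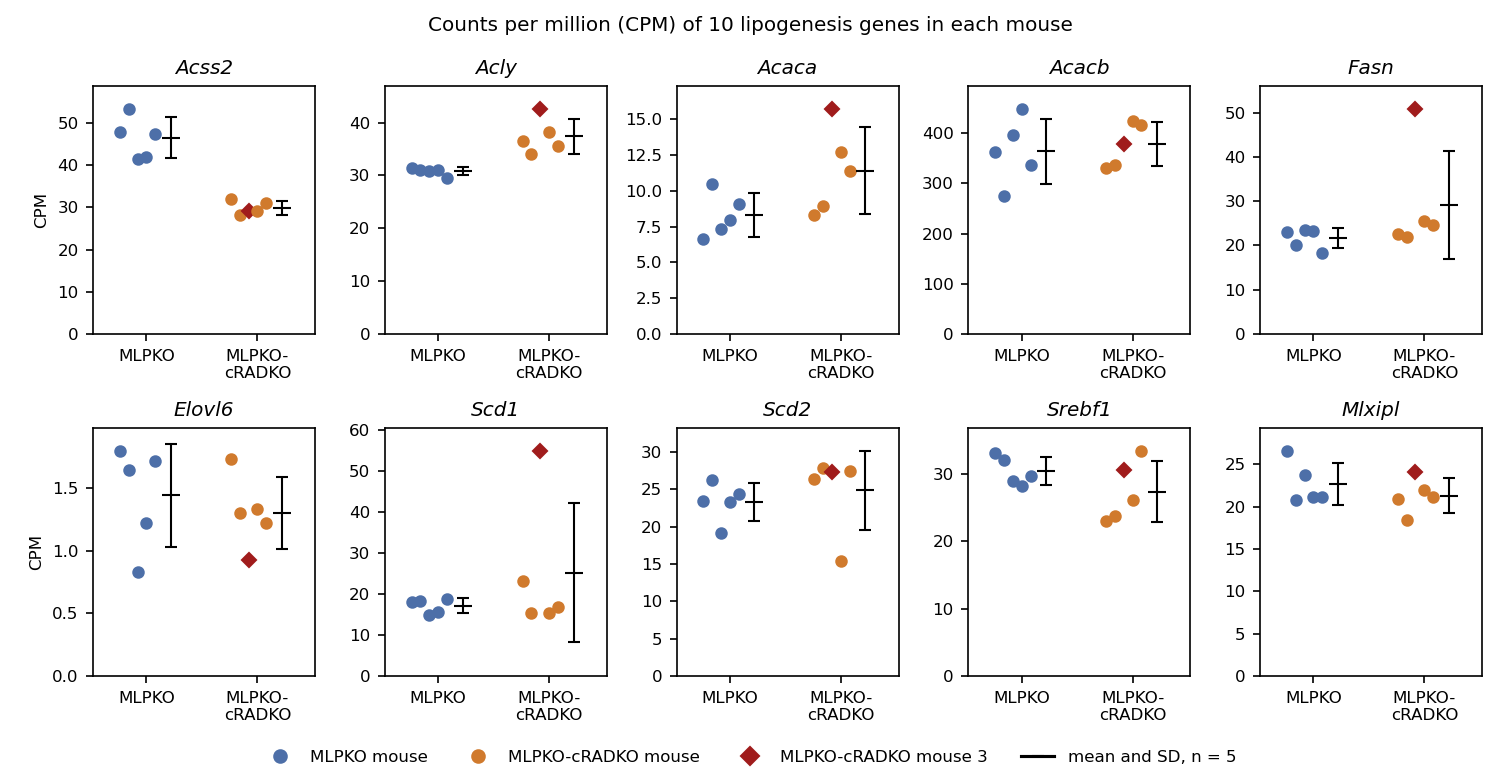
CPM of each gene (y axis, starting at 0) in the 5 MLPKO and 5 MLPKO-cRADKO mice, with mean and SD (n = 5) beside the points. The genotypes separate for *Acss2* (41.6 to 53.4 against 28.1 to 32.0 CPM) and *Acly* (29.5 to 31.5 against 34.1 to 42.7 CPM), and MLPKO-cRADKO mouse 3 (diamond) sits far above all other mice for *Fasn* and *Scd1*.

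*Acss2* (ENSMUSG00000027605, chromosome 2, 155355679 to 155428016) makes acetyl-CoA from acetate in the cytosol and nucleus. Its level was 48.0, 53.4, 41.6, 42.1 and 47.3 CPM in MLPKO mice 1 to 5. In MLPKO-cRADKO mice 1 to 5 it was 32.0, 28.1, 29.1, 29.1 and 31.1 CPM. Every MLPKO-cRADKO mouse was below every MLPKO mouse, and the spread was also small. The mean fell from 46.5 ± 4.87 (SD, n = 5) to 29.9 ± 1.63 CPM (SD, n = 5), 64.3% of the MLPKO level, with a log2 fold change of -0.64 (standard error 0.08). These means rested on 1064 to 2145 counts per mouse. Without MLPKO-cRADKO mouse 3 the log2 fold change was -0.62, and its call held in each of the 10 fits with 1 mouse removed. In the annotation 10.3% of the canonical exon bases of *Acss2* are shared with exons of other genes, mainly *Ggt7* on the opposite strand, which was counted at only 1.23 CPM.

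*Acly* (ENSMUSG00000020917, chromosome 11, 100367165 to 100440756) makes acetyl-CoA from citrate exported by mitochondria. It was even across MLPKO mice 1 to 5, at 31.5, 31.1, 30.9, 31.0 and 29.5 CPM. MLPKO-cRADKO mice 1 to 5 had 36.5, 34.1, 42.7, 38.2 and 35.5 CPM. All MLPKO-cRADKO mice were above all MLPKO mice, and mouse 3, the library with adipocyte RNA, was the highest. The mean was 30.8 ± 0.77 (SD, n = 5) in MLPKO and 37.4 ± 3.31 CPM (SD, n = 5) in MLPKO-cRADKO, 121% of the MLPKO level, with a log2 fold change of 0.28 (standard error 0.06). Without mouse 3 the MLPKO-cRADKO mean was 36.1 CPM and the log2 fold change 0.24, no longer called but still with no overlap. The call was lost in 8 of the 10 fits that left out 1 mouse, while the log2 fold change stayed between 0.24 and 0.32 in all 10.

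The ratio of *Acly* to *Acss2* counts within a mouse, which no scaling between libraries can move, was 0.657, 0.582, 0.743, 0.737 and 0.623 in MLPKO mice 1 to 5. It was 1.14, 1.21, 1.47, 1.31 and 1.14 in MLPKO-cRADKO mice 1 to 5. The acetate enzyme thus gave more counts than the citrate enzyme in every MLPKO mouse and fewer in every MLPKO-cRADKO mouse. These are ratios of counts and not of transcript numbers, since the lengths differ.

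**Figure D3:**
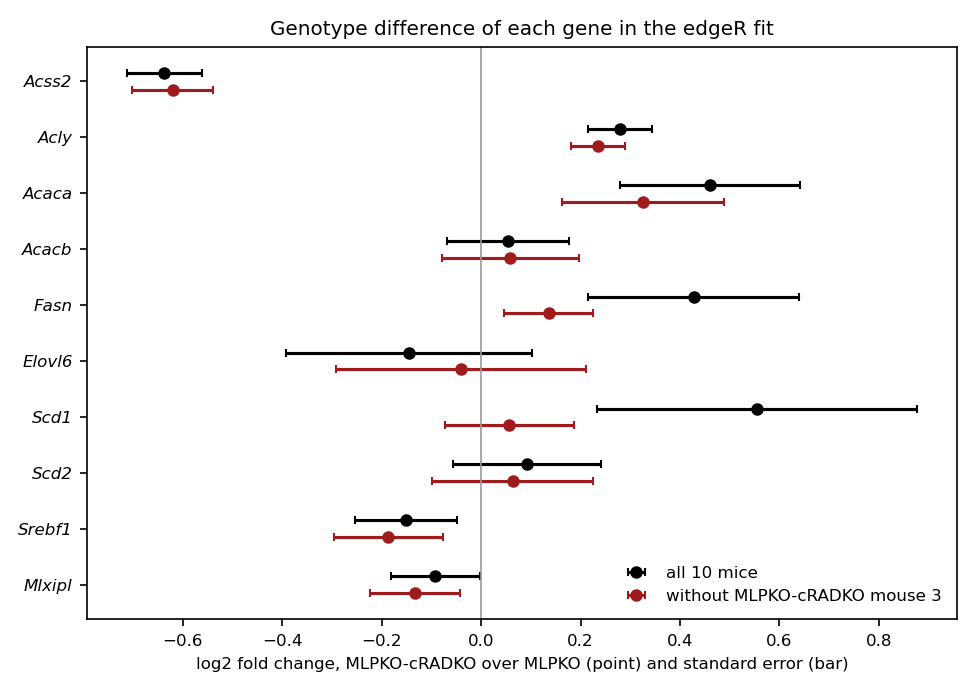
Log2 fold change of each gene in MLPKO-cRADKO over MLPKO (x axis) with its standard error, for all 10 mice (black) and without MLPKO-cRADKO mouse 3 (red). *Acss2* stays near -0.6 in both, while *Fasn* moves from 0.43 to 0.14 and *Scd1* from 0.56 to 0.06.

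The 2 acetyl-CoA carboxylases differ in place and use, *Acaca* in the cytosol for fat synthesis and *Acacb* at the mitochondrial surface. *Acaca* (chromosome 11, 84020476 to 84292477) was at 6.61, 10.5, 7.32, 8.0 and 9.11 CPM in MLPKO mice 1 to 5. In MLPKO-cRADKO mice it was at 8.29, 8.95, 15.8, 12.7 and 11.4 CPM. The groups overlapped, and mouse 3 was again the highest. The log2 fold change was 0.46 (standard error 0.18), and 0.33 without mouse 3. *Acacb* (chromosome 5, 114284307 to 114388822) was at 364 ± 65.2 CPM (SD, n = 5) in MLPKO and 378 ± 43.7 CPM (SD, n = 5) in MLPKO-cRADKO. The MLPKO-cRADKO range of 331 to 425 CPM lay within the MLPKO range of 275 to 449 CPM, and the log2 fold change of 0.05 turned to -0.03 without MLPKO mouse 2, which had the lowest *Acacb* of all 10 mice.

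*Fasn* (chromosome 11, 120696672 to 120715995) showed how much a single heart could weigh. MLPKO mice 1 to 5 had 22.9, 20.1, 23.5, 23.3 and 18.4 CPM. MLPKO-cRADKO mice 1 to 5 had 22.7, 21.9, 50.9, 25.5 and 24.6 CPM. Apart from mouse 3 the groups overlapped within a few CPM. The mean of 21.6 ± 2.28 CPM (SD, n = 5) stood against 29.1 ± 12.3 CPM (SD, n = 5), a log2 fold change of 0.43 (standard error 0.21), and without mouse 3 the MLPKO-cRADKO mean was 23.7 ± 1.65 CPM (SD, n = 4) and the log2 fold change 0.14.

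The next enzymes lengthen and desaturate the palmitate that *Fasn* makes. *Scd1* (chromosome 19, 44382894 to 44399154), a stearoyl-CoA desaturase abundant in fat, was at 17.9, 18.4, 14.8, 15.5 and 18.8 CPM in MLPKO mice 1 to 5. In MLPKO-cRADKO mice it was at 23.2, 15.4, 54.9, 15.5 and 16.7 CPM. Mouse 3 had more than all others, mouse 1 followed, and the other 3 were within the MLPKO range. The log2 fold change of 0.56 (standard error 0.32) was 0.06 without mouse 3, with an MLPKO-cRADKO mean of 17.7 ± 3.70 CPM (SD, n = 4). *Scd2* (chromosome 19, 44281613 to 44295303), the form typical of other tissues, was at 23.3 ± 2.57 CPM (SD, n = 5) and 24.8 ± 5.34 CPM (SD, n = 5) with a log2 fold change of 0.09, and it was not raised in mouse 3 (27.3 CPM). Its lowest value, 15.3 CPM, was in MLPKO-cRADKO mouse 4. Without that mouse the *Scd2* log2 fold change was 0.23 (standard error 0.08), still not called. The *Scd1* to *Scd2* count ratio was 0.663 to 0.772 in MLPKO and 0.554 to 2.01 in MLPKO-cRADKO, with the upper end in mouse 3. *Elovl6* (chromosome 3, 129326004 to 129432144), the elongase of palmitate, was scarce, at 34 to 78 counts per mouse, 1.45 ± 0.41 CPM (SD, n = 5) in MLPKO and 1.31 ± 0.289 CPM (SD, n = 5) in MLPKO-cRADKO, and its log2 fold change of -0.14 was smaller than its standard error of 0.25.

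Neither transcription factor gene separated the genotypes. *Srebf1* (chromosome 11, 60089913 to 60113407) was at 30.4 ± 2.09 CPM (SD, n = 5) in MLPKO and 27.4 ± 4.50 CPM (SD, n = 5) in MLPKO-cRADKO, with overlapping ranges of 28.2 to 33.1 and 23.0 to 33.4 CPM and a log2 fold change of -0.15 (standard error 0.10). *Mlxipl* (chromosome 5, 135118744 to 135168615) was at 22.7 ± 2.50 and 21.3 ± 2.04 CPM (SD, n = 5 each), a log2 fold change of -0.09 (standard error 0.09). SREBP-1 is made as an inactive membrane-bound precursor and ChREBP is switched on by sugar metabolites, so the RNA of either gene does not measure the active protein.

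The order of levels among the 10 genes was taken per kilobase. With the canonical transcript length, *Acacb* was the highest in MLPKO at 40.1 ± 7.18 CPM per kilobase (SD, n = 5), followed by *Acss2* at 15.4 ± 1.62 and by *Srebf1* at 7.01 ± 0.482. *Acly* (6.98 ± 0.175) and *Mlxipl* (6.23 ± 0.688) were not apart from *Srebf1* beyond these spreads. *Scd2* (4.27 ± 0.471), *Scd1* (3.40 ± 0.362), *Fasn* (2.00 ± 0.211) and *Acaca* (0.874 ± 0.162) came next, and *Elovl6* was the lowest at 0.236 ± 0.0668. *Acacb* thus lay far above *Acaca*, its cytosolic counterpart, in every mouse. In MLPKO-cRADKO *Acss2* was at 9.93 ± 0.542 and *Acly* at 8.48 ± 0.751 by this length. By the union of exons the means of *Acss2* and *Acly* were 2.35 and 2.11 in MLPKO and 1.51 and 2.57 in MLPKO-cRADKO, so whether they lay nearer or farther apart in MLPKO-cRADKO depended on the length used. *Acacb* at the top and *Acaca* and *Elovl6* at the bottom held with all 3 lengths tried, whereas *Acss2* was at rank 2 by canonical or longest transcript and at rank 6 by the union of its exons (19789 bases against 3008 for the canonical transcript).

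Adipocyte RNA was set beside the deviations of each gene from the mean of its genotype. In MLPKO-cRADKO mouse 3 the log2 deviation was 1.32 for *Scd1*, 0.89 for *Fasn*, 0.50 for *Acaca* and 0.19 for *Acly*, and it was -0.04 for *Acss2* and 0.01 for *Acacb*. The summed white adipocyte markers (11 of 12 listed genes matched) ranged from 298 to 361 CPM in MLPKO and from 346 to 535 CPM in MLPKO-cRADKO, mostly from *Fabp4*, which heart endothelium also expresses. The part of adipocyte RNA in the levels of *Scd1*, *Fasn*, *Acaca* and *Acly* in mouse 3 was not tested. *Acss2* was at 29.1 CPM in mouse 3 and at 28.1 to 32.0 CPM in the 4 other MLPKO-cRADKO hearts, where the 6 defining adipocyte genes summed to at most 27 counts. The part of cell composition in the *Acss2* difference was not tested.

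**Figure D4:**
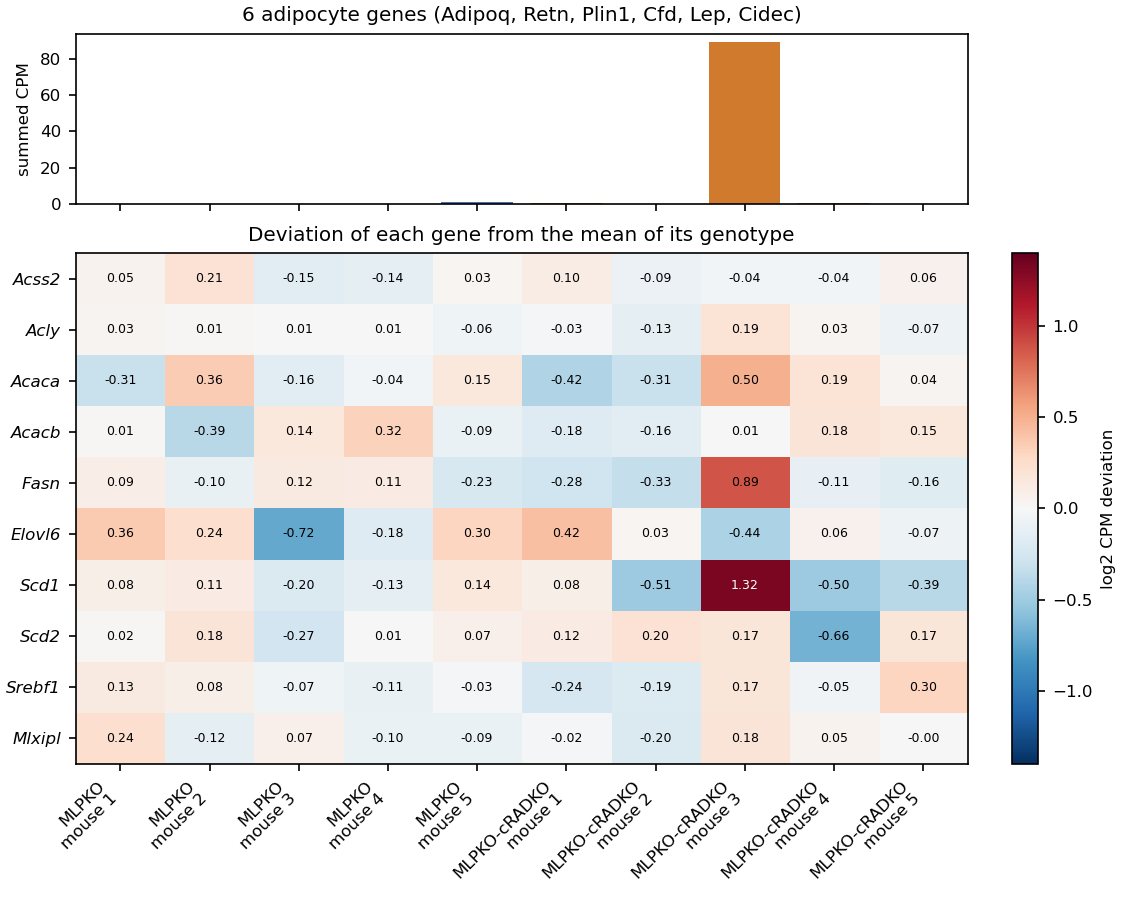
Top, summed CPM of 6 adipocyte genes in each mouse, 89.3 CPM in MLPKO-cRADKO mouse 3 and under 1 CPM in the others. Bottom, deviation of log2 CPM of each gene (rows) from its genotype mean in each mouse (columns), with the value in each cell, where *Scd1* (1.32) and *Fasn* (0.89) in mouse 3 are the largest.

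Co-variation among the 10 mice was tested on these deviations, which do not contain the genotype difference, in 19 relations with a 2-sided permutation test within genotype. *Acly* followed the mean of the white adipocyte markers that passed the count filter (*Pparg*, *Fabp4*, *Lipe* and *Adig*, all of which the heart also expresses), with Pearson r = 0.98 (adjusted permutation p = 0.0116) and Spearman rho = 0.95 (adjusted permutation p = 0.0437). *Fasn* did so with r = 0.93 (adjusted permutation p = 0.0121) and rho = 0.79 (adjusted permutation p = 0.0437). Leaving out the 2 mice farthest from the median of the marker score left r = 0.93 for *Acly* and 0.76 for *Fasn*. Both relations missed the threshold without MLPKO-cRADKO mouse 3 (r = 0.94 and 0.81, adjusted permutation p = 0.0614 for each), and that of *Fasn* missed it without MLPKO mouse 2 as well (adjusted permutation p = 0.0592). With all 11 matched markers r was 0.85 for *Acly* (adjusted permutation p = 0.517) and 0.88 for *Fasn* (adjusted permutation p = 0.534). Without the 2 farthest mice these fell to r = 0.14 and 0.16, so with all markers the relations rested on those mice. *Srebf1* deviations were not related to those of any of the other 9 genes at this size of series (r from -0.15 to 0.53, smallest adjusted permutation p = 0.534). The 5 genes whose deviations were most like those of *Acss2* over the 10 mice were *Yju2b* (r = 0.97), *Zfand2b* (0.96), *Syk* (0.96), *Rftn1* (0.96) and *Synrg* (0.95), picked as the highest of all genes and given as a description with no test. Among the members, *Acss2* deviations lay nearest to those of *Elovl6* (0.71) and opposite to *Acacb* (-0.72).

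Around the 10 genes, 132 others of connected pathways were listed and 120 passed the filter, of which 2 rose and 3 fell in MLPKO-cRADKO at an edgeR adjusted p under 0.05 (4.17%, beside 2.74% of all genes). DESeq2 called 10 of the same 120 (5 higher, 5 lower), beside 9.65% of all genes, so an excess over all genes was not seen with both tools. The median log2 fold change of the 120 was 0.01. Cholesterol synthesis, the pathway of the sister factor SREBP-2, had 0 of 22 genes called by edgeR or DESeq2 (3 at an unadjusted edgeR p under 0.05), with 11 higher and 11 lower. Elongation and desaturation outside the members had 0 of 16 called (4 unadjusted), and mitochondrial fatty acid synthesis 0 of 8 (2 unadjusted), again by both tools.

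The 5 called genes were *Slc16a1*, *Slc16a7*, *Prkab2*, *Foxo1* and *Lpin3*. Among 24 genes supplying acetyl-CoA, citrate or NADPH, *Slc16a1* (MCT1), a carrier of lactate, pyruvate and other short monocarboxylates, was at 266, 261, 279.9, 280.9 and 330.4 CPM in MLPKO and from 196 to 257 CPM in MLPKO-cRADKO. It fell by 0.40 on the log2 scale (standard error 0.09, edgeR adjusted p = 0.0395). *Slc16a7* (MCT2), a related carrier of higher affinity, rose from 2.87 ± 1.18 to 7.36 ± 2.26 CPM (SD, n = 5 each), with no overlap (edgeR adjusted p = 0.0308). Its log2 fold change was 1.36 with a standard error of 0.28.

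*Acss1*, the mitochondrial counterpart of *Acss2*, is named after its values were seen. It was at 199 to 306 CPM in MLPKO and 337 to 389 CPM in MLPKO-cRADKO, with no overlap, a log2 fold change of 0.45 and an edgeR adjusted p = 0.0507. It missed the threshold by edgeR and passed it by DESeq2 (adjusted p = 0.00398), and its difference was opposite in sign to that of *Acss2*. *Slc25a1*, which exports the citrate that *Acly* cuts, was at 5.87 ± 1.22 and 6.02 ± 1.82 CPM (SD, n = 5 each).

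*Prkab2*, a regulatory subunit of AMPK, the kinase that inactivates both acetyl-CoA carboxylases, was the strongest fall in the lists. It was at 119, 192, 114, 89.1 and 143 CPM in MLPKO mice 1 to 5, and between 55.3 and 69.0 CPM in MLPKO-cRADKO. Its log2 fold change was -1.06 ± 0.17 (SE) at an edgeR adjusted p = 0.0161. The other 11 tested genes of malonyl-CoA use and AMPK, among them the catalytic subunit *Prkaa2* (214 and 211 CPM) and the malonyl-CoA decarboxylase *Mlycd* (101 and 113 CPM), were not called by edgeR. DESeq2 called 2 of the 12 genes of this list, both lower, and 2 were lower with no overlap. *Prkag3* was the only gene of the list besides *Prkab2* at an unadjusted edgeR p under 0.05, and it was also lower. *Foxo1*, a transcription factor restrained by insulin signalling, rose from 25.9 ± 0.974 to 31.5 ± 2.38 CPM (SD, n = 5 each, log2 fold change 0.28, edgeR adjusted p = 0.0389). It was the only 1 of 19 SREBP and ChREBP regulators and partners called by edgeR. DESeq2 called 3 of these 19 (2 higher, 1 lower), and 5 were at an unadjusted edgeR p under 0.05 (3 higher, 2 lower). *Lpin3*, a phosphatidate phosphatase, fell from 9.38 to 5.74 CPM (log2 fold change -0.71, edgeR adjusted p = 0.0461), with overlapping ranges. It was the only 1 of 19 genes of triglyceride and phospholipid assembly called by edgeR. DESeq2 also called *Acsl4* of this list, which was higher with no overlap (DESeq2 adjusted p = 0.0134, edgeR adjusted p = 0.0565). *Foxo1*, *Slc16a1*, *Slc16a7* and *Lpin3* each missed the threshold in 7 or 8 of the 10 fits without 1 mouse, and *Prkab2* in 1, without MLPKO mouse 5.

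**Figure D5:**
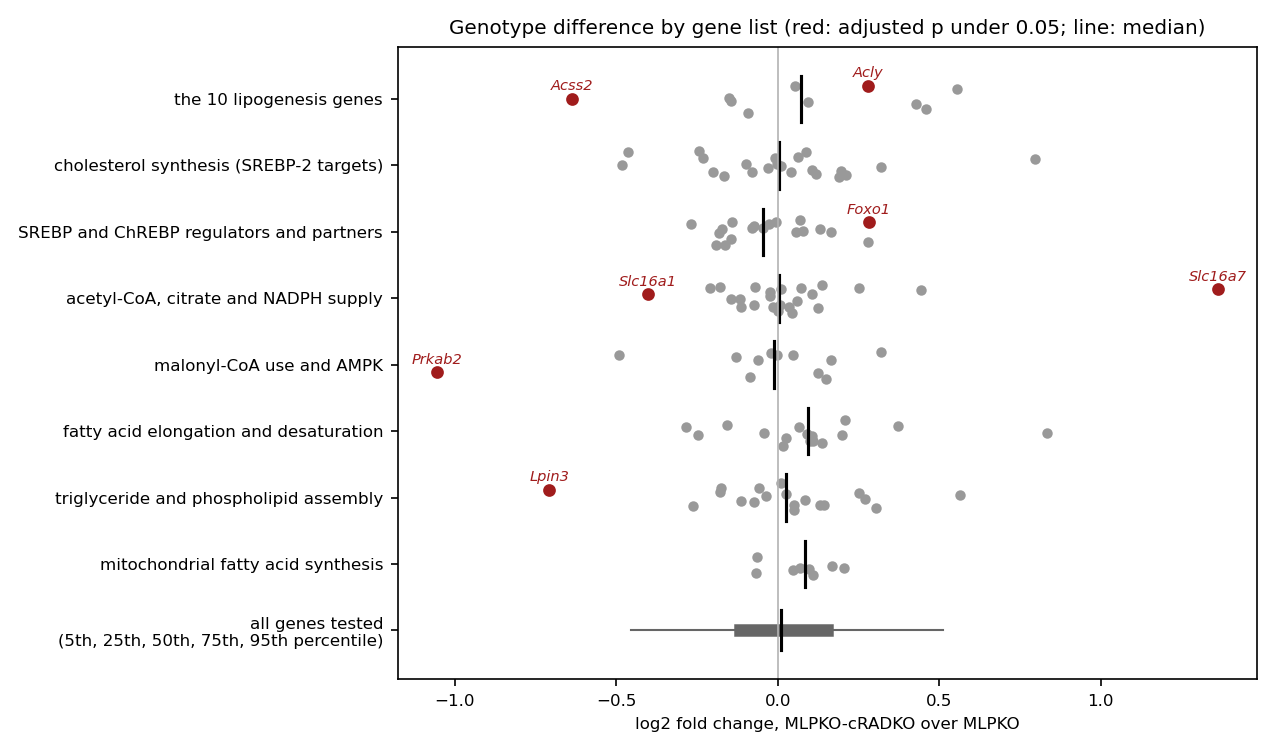
Log2 fold change (x axis, MLPKO-cRADKO over MLPKO) of each tested gene in the 10-gene set and in 7 lists of connected pathways, with the median of each list as a black line and genes at an edgeR adjusted p under 0.05 in red. The bottom row gives the 5th to 95th percentile of all 13453 genes (-0.45 to 0.51), and most listed genes fall within it.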

How the data were processed

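RNA of the apical ventricle of 10 mice was sequenced after polyA selection. Per the labels, the authors used FastQC, STAR and featureCounts with build GRCm39 and deposited raw read counts per Ensembl gene; versions, annotation release and strand setting are not given in the sources used here. From 73.7% to 80.3% of counts between 1 and 20 were even, so most fragments may have been counted by both mates, and the effective depth is then lower. Symbols, coordinates and lengths came from GENCODE release M39 (56629 of 57185 genes matched), whose upstream sequences and motifs were read from the GRCm39 genome.

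As in the study's methods, a gene was kept if over 10 counts were present in 6 or more of the 10 mice and its name was no Gm or Rik name. The counts were scaled by TMM and tested in edgeR 4.0.16 (R 4.3.3; quasi-likelihood), genotype as the only term, with Benjamini-Hochberg adjustment over 13453 genes and a threshold of 0.05. The study used DESeq2, which was run here (1.42.0) as an alternative beside limma-voom (3.58.1), other scalings and filters, a replicate block and leaving out mice. The code was tested on simulated counts. There edgeR recovered 81% of genes with a log2 change of 1.0 in size and 34% of those with 0.5. Of the calls, 7.26% were false with edgeR and 20% with DESeq2. A gene that was not called may therefore still differ, and a call by DESeq2 alone is less secure. CPM use TMM library sizes, and deviations use log2 CPM (prior count 2), tested with 100000 permutations. Among the 10 genes counting error is largest for *Elovl6* (34 to 78 counts per mouse).

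The 10 genes and all lists were chosen with earlier results of these data known. Named outside them were listed genes under the threshold (at most 6 a list), the 5 genes most like *Acss2*, *Rrad* and *Csrp3*. *Acss1*, *Slc25a1*, *Prkaa2*, *Prkag3*, *Mlycd*, *Acsl4*, *Cpt1a*, *Cpt1b*, *Elovl7*, *Cidea*, genes that share exons with these and the marker genes fall outside this rule and were named with their values known. The upstream sequence of *Fasn* is not reported here.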

Additional observations from a re-analysis of the deposited data

Results flagged for a closer look

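In 32 groups of 5 mice (the 10 genes, the 5 called genes of the pathway lists and *Acss1*, in each genotype), a single mouse far from the other 4 was looked for with Dixon's criterion, whose critical value is 0.71 and which chance exceeds in about 1 in 20 groups. It was exceeded in 4 groups. *Fasn* at 50.9 CPM and *Scd1* at 54.9 CPM in MLPKO-cRADKO mouse 3 were each far above the other 4 mice of that genotype, with gaps of 0.877 and 0.804 of the group's range. This mouse also had 3268 counts of the 6 adipocyte genes, and their part in these values was not tested. *Scd2* at 15.3 CPM in MLPKO-cRADKO mouse 4 was far below the other 4 (0.88 of the range). Without this mouse its log2 fold change was 0.23 (edgeR adjusted p = 0.174). *Slc16a1* at 330 CPM in MLPKO mouse 5 was far above the other 4 (0.714 of the range), and without this mouse its log2 fold change was -0.34 (edgeR adjusted p = 0.0848).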

How the results depend on the processing

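The direction and call of *Acss2* were the same in all 20 alternatives, with log2 fold changes from -0.67 to -0.57. *Acly* kept its direction in all 20 and lost its call in 11. The number of the 10 genes called was 1 in place of 2 with no filter on low counts, with the replicate block, and without MLPKO mouse 2 and MLPKO-cRADKO mouse 3 together, and 1 to 2 when 1 mouse was left out; the cause was not tested. Over all genes, 369 calls (127 higher, 242 lower) became 1298 (512 higher, 786 lower) with DESeq2 and 159 (56 higher, 103 lower) without those 2 mice. Leaving out 1 mouse gave from 47 (without MLPKO mouse 5) to 826 calls (without MLPKO mouse 4), 12 to 295 higher and 35 to 531 lower. The 5 calls in the pathway lists became 10 with DESeq2, 2 with the replicate block, 1 without the 2 mice together and 0 to 8 when 1 mouse was left out, with 0 again without MLPKO mouse 5.

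Of the 10 genes, *Acacb* changed sign without MLPKO mouse 2 (-0.0322; from there up to 0.1405 over the fits without 1 mouse) and without both mice (-0.0279), and *Elovl6* without both mice (0.00738), all far from any call. Relations with an adjusted permutation p under 0.05 numbered 2 in the co-variation, 3 with a prior count of 0.5, 0 to 1 when MLPKO mouse 2 or MLPKO-cRADKO mouse 3 was left out, and 0 with all matched markers. Leaving out both mice, the co-variation without MLPKO-cRADKO mouse 3, all matched markers and the canonical length were chosen after seeing the data.

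Same-numbered mice of the 2 genotypes were different animals, and the labels link them by a number alone. Their deviations correlated from -0.04 to 0.15, and mice 1 and 3 alone correlated best with their own number. A shared litter or batch is not given in the labels, and the block was not taken as a pairing. With the block, *Acly* had a log2 fold change of 0.28 and was not called. *Foxo1*, *Slc16a1* and *Lpin3* were not called either, and the calls over all genes were 281. *Elovl6* was counted 34 to 78 times per mouse, and the parts of depth and of the spread between mice in its error were not tested.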

Other observations

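*Cpt1b*, the muscle form of the carnitine palmitoyltransferase that malonyl-CoA inhibits and the form known to prevail in heart, was counted at only 1.81 ± 0.422 CPM in MLPKO and 2.26 ± 0.556 CPM in MLPKO-cRADKO (SD, n = 5 each). *Cpt1a*, the liver form, was at 32.1 and 36.0 CPM. In the annotation 89.8% of the canonical exon bases of *Cpt1b* are shared with the readthrough gene *Gm44502* on the same strand, against 0% for *Cpt1a* and at most 10.3% for any of the 10 lipogenesis genes. How reads that fall in exons of more than 1 gene were counted was not tested, and the level of *Cpt1b* is uncertain for this reason.

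*Cidea*, a lipid droplet gene first known from brown fat, is named after its values were seen. It was at 26.5 CPM in MLPKO and 16.5 CPM in MLPKO-cRADKO, a log2 fold change of -0.69, while *Ucp1* did not exceed 3 counts in any mouse. *Elovl7*, an elongase that did not pass the count filter, was at 0.107 to 0.158 CPM in 4 MLPKO mice and at 1.81 CPM in MLPKO mouse 5, and it was at 0.239 CPM in MLPKO-cRADKO mouse 1 and from 2.78 to 3.65 CPM in the other 4.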
